A study of Homo sapiens with 16 samples.

Results

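The miRNAs described here are the 9 mature products of the human miR-17~92 and miR-106b~25 clusters that were followed across the cells and extracellular vesicles (EVs) of 2 cancer cell lines. They were chosen by name, 6 from miR-17~92 (hsa-miR-17-5p, hsa-miR-18a-5p, hsa-miR-19a-3p, hsa-miR-20a-5p, hsa-miR-19b-3p and hsa-miR-92a-3p) and 3 from miR-106b~25 (hsa-miR-106b-5p, hsa-miR-93-5p and hsa-miR-25-3p), and make up 9 of the 915 miRNA entries in the table. The libraries come from PC3 (prostate cancer) and MDA-MB-231 (breast cancer). Both lines are labelled wild type, untreated and epithelial. For each line there were EVs isolated from conditioned media (CM) by next-gen ATPS, an aqueous two-phase system in which PEG and dextran separate and the dextran is then removed with dextranase, EVs isolated by ultracentrifugation (UC), EVs processed with the exoRNeasy column kit, and the donor cells. There were thus 8 groups, each with 2 libraries, and 16 libraries altogether. EV donor cells were kept in serum-free medium for 72 h before the CM was collected. The label VC marks a set of EV libraries taken here as UC, the only named method that no other label covers. Whether the 2 libraries of a group are separate cultures is not given in the labels or the study's methods, and p-values therefore cover only the variation among the libraries at hand, possibly technical.

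The miR-17~92 cluster is a polycistron: a single primary transcript, made from the MIR17HG gene under the control of MYC and E2F factors, is cut into several hairpins and then into mature miRNAs. It is amplified or overexpressed in many tumours, for which it is also called oncomir-1, and miR-106b~25 is its smaller relative, processed from an intron of MCM7, a gene of the DNA replication machinery. A miRNA recognises its targets mainly through its seed, the bases 2 to 8 from its 5′ end, so members with the same seed are expected to share many targets. The miR-17 seed family (miR-17, miR-20a, miR-106b and miR-93) acts on the cell cycle inhibitor CDKN1A and on E2F1, and miR-92a and miR-25 act on the pro-apoptotic BCL2L11 (BIM).

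The mature sequences, from RefSeq on GRCh38.p14, are shown because seed and near-identity decide which members can be told apart, and the seed is in capitals. The paralogue hsa-miR-106a-5p, from the related cluster on chromosome X, is given as the last line for comparison with hsa-miR-17-5p.
hsa-miR-17-5p: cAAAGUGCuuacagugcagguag
hsa-miR-20a-5p: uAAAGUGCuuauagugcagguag
hsa-miR-106b-5p: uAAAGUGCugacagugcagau
hsa-miR-93-5p: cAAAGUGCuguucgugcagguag
hsa-miR-18a-5p: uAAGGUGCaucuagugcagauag
hsa-miR-19a-3p: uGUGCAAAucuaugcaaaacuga
hsa-miR-19b-3p: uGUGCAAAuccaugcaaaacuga
hsa-miR-92a-3p: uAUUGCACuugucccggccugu
hsa-miR-25-3p: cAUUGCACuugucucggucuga
hsa-miR-106a-5p: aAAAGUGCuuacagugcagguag

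The 9 members carry 4 seeds. AAAGUGC is shared by 4 of them, GUGCAAA by hsa-miR-19a-3p and hsa-miR-19b-3p, AUUGCAC by hsa-miR-92a-3p and hsa-miR-25-3p, and hsa-miR-18a-5p alone has AAGGUGC. Counting from 1 at the 5′ end, hsa-miR-17-5p and hsa-miR-106a-5p differ only by C1A, outside the seed, and hsa-miR-19a-3p and hsa-miR-19b-3p differ only by U11C. The pair with the seed AUUGCAC differs by U1C, C14U, C18U and U22A between hsa-miR-92a-3p and hsa-miR-25-3p. hsa-miR-19b-3p and hsa-miR-92a-3p are also each made, with the same sequence, from another hairpin on chromosome X, so their reads cannot be assigned to one locus.

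On GRCh38.p14 the 6 hairpins of miR-17~92 lie on the plus strand of chromosome 13 between 91350605 and 91351391, a stretch of 787 bp inside MIR17HG, and in the canonical GENCODE v44 transcript they are intronic. The 3 hairpins of miR-106b~25 lie on the minus strand of chromosome 7 between 100093560 and 100094074, a stretch of 515 bp inside MCM7, and are intronic in its canonical transcript.

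The values are called TPM by the authors and are reads per 1000000 miRNA reads of a library, with no length term. The miRNA reads numbered 2508 to 14612 in the PC3 EV libraries and 34422 and 97408 in PC3 cells, 1982 to 26726 in the MDA-MB-231 EV libraries and 44370 and 153 in MDA-MB-231 cells. In the 15 libraries that were fitted, 1 read was therefore worth 10.3 to 505 TPM, and a count of 0 allows a level of up to 3 reads, 30.8 to 1514 TPM. MDA-MB-231 cells replicate 2, with 153 reads, had no read of any of the 9 members, which allows up to 19608 TPM of each, more than any level measured here, and was left out of the fit. MDA-MB-231 cells are thus 1 library, assumed to vary like the other groups. Intervals and limits cover counting error only, since the reads carry no molecular identifiers. Where a fold is given below as at least a value, the side with 0 reads is set at its limit of 3 reads. The other side is taken at its measured level, without its counting error. Entries with mature names took 70.7% to 81.6% of miRNA reads in PC3 EVs and 54.3% and 55.1% in PC3 cells, and 36.2% to 60.5% in MDA-MB-231 EVs and 74.4% in the fitted MDA-MB-231 cell library. The other reads carry hairpin names, and since every TPM is a share, this mix moves with all levels below. Its part in the differences was measured by taking the mature-named reads alone. Of 6 miRNAs that mark epithelial cells, 3 are in the table, with 0 to 399 TPM in all per EV library of PC3 and 113 and 174 TPM in PC3 cells. For MDA-MB-231 the same sum was 0 to 74.8 TPM in EVs and 135 TPM in the fitted cell library, and miR-141-3p, miR-429 and miR-205-5p are not listed. Of 7 blood cell markers 1, hsa-miR-486-5p, is in the table, with 0 to 344 TPM in PC3 EVs, against 51.3 and 58.1 TPM in PC3 cells, and with 187 to 1009 TPM in MDA-MB-231 EVs, against 248 TPM in the fitted MDA-MB-231 cell library, and its part in the results was not tested. The markers of liver and muscle looked for are not listed.

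Together the 9 members were a minor part of the miRNA reads, and hsa-miR-92a-3p had the most reads of them in every fitted group but PC3 exoRNeasy EVs, where it had 3 and hsa-miR-19b-3p 4. Summed over the members, the level was 1084 to 2791 TPM in the 6 PC3 EV libraries, against 7001 and 7689 TPM in PC3 cells. In MDA-MB-231 it was 2047 to 6286 TPM in the EV libraries, against 14289 TPM in the fitted cell library. In both lines every EV library lay below every fitted cell library. These are bulk libraries, so fewer vesicles or cells that carry a miRNA and less of it in each cannot be told apart.

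**Figure D1:**
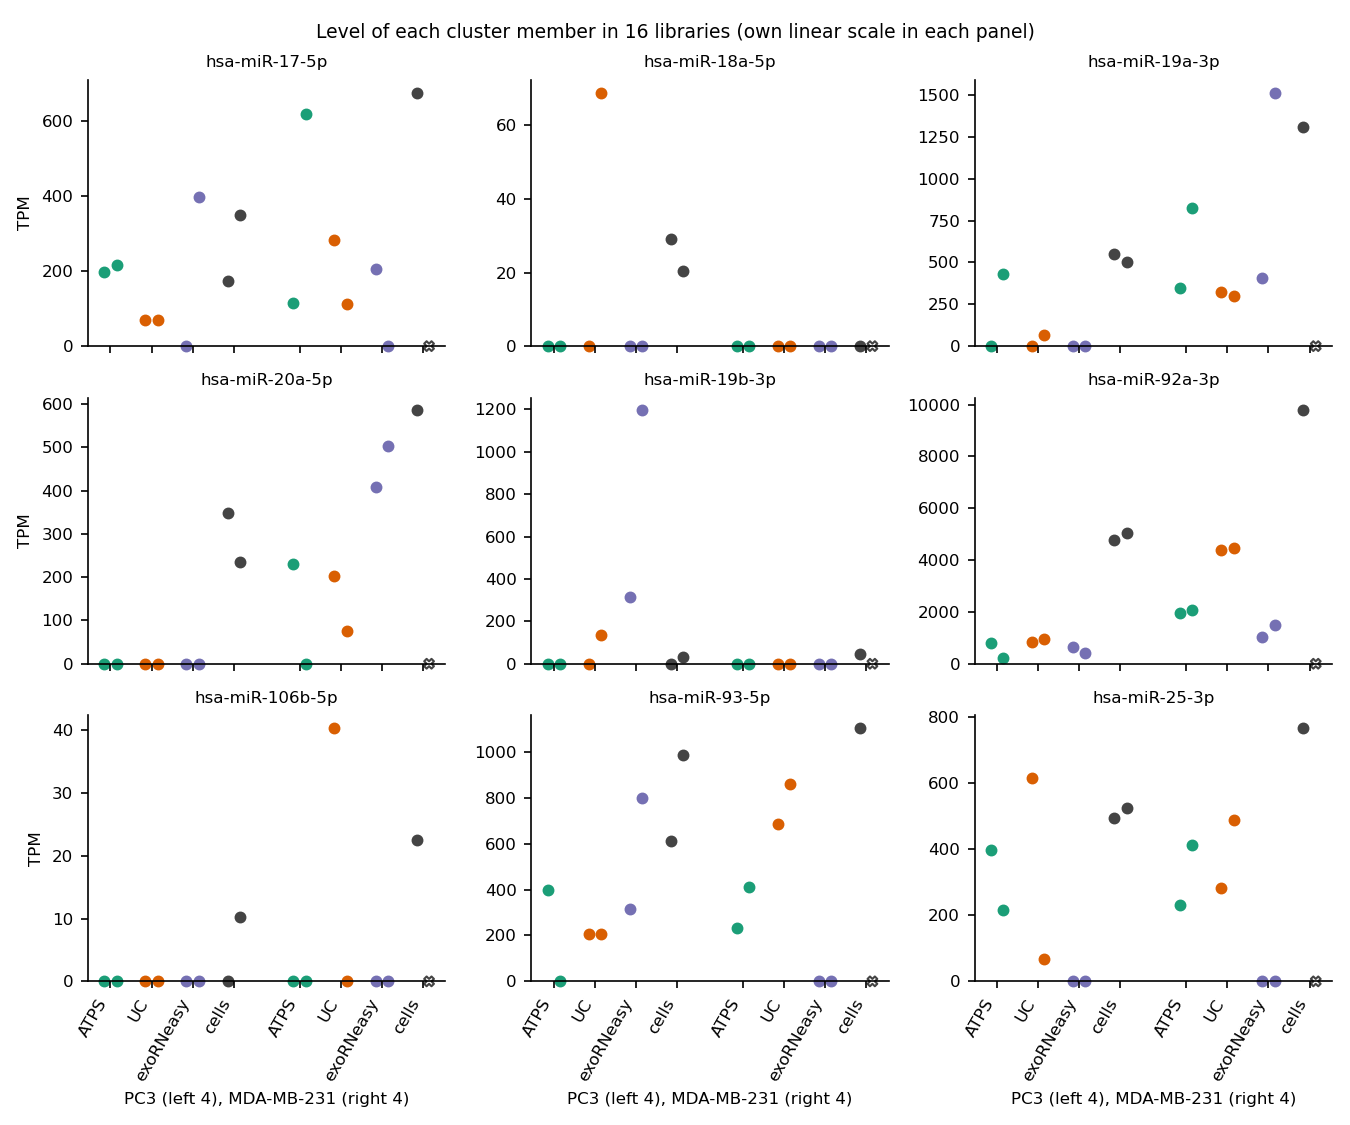
Level of each of the 9 members in TPM (reads per 1000000 miRNA reads, linear axis from 0, own scale in each panel) in the 16 libraries, by cell line and material. Each point is 1 library, and the cross is MDA-MB-231 cells replicate 2 with 153 reads. hsa-miR-92a-3p reached 9781 TPM, while hsa-miR-106b-5p stayed at or below 40.4 TPM and hsa-miR-18a-5p at or below 68.9 TPM.

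The reads of the members fall in a steep order. Over all 16 libraries hsa-miR-92a-3p had 1386 reads in 15 libraries, hsa-miR-93-5p 221 in 12, hsa-miR-19a-3p 157 in 11, hsa-miR-25-3p 139 in 11, hsa-miR-17-5p 90 in 13, hsa-miR-20a-5p 73 in 8 and hsa-miR-19b-3p 11 in 5. hsa-miR-18a-5p, whose seed differs by a single base from that of miR-17, had 4 reads and hsa-miR-106b-5p had 3 reads, each in 3 libraries. With means of 7.9 TPM and 4.88 TPM over the fitted libraries these last members were under the minimum mean of 50 TPM, so 7 of the 9 members could be tested, among 309 entries in all. hsa-miR-19b-3p passed this minimum only through PC3 exoRNeasy replicate 2, with 1196 TPM, so its tests rest on the value that admitted it, and its calls are given as a description. No value of hsa-miR-18a-5p or hsa-miR-106b-5p in an EV library was above the limit that a count of 0 allows there. In PC3 cells the pooled level was 4969 TPM for hsa-miR-92a-3p, 888 TPM for hsa-miR-93-5p, 516 TPM for hsa-miR-19a-3p and for hsa-miR-25-3p, 303 TPM for hsa-miR-17-5p and 265 TPM for hsa-miR-20a-5p. In the fitted MDA-MB-231 cell library the order was hsa-miR-92a-3p with 9781 TPM, hsa-miR-19a-3p with 1307 TPM, hsa-miR-93-5p with 1104 TPM, hsa-miR-25-3p with 766 TPM, hsa-miR-17-5p with 676 TPM and hsa-miR-20a-5p with 586 TPM. Neighbours below hsa-miR-92a-3p are close in both orders, and the values of hsa-miR-93-5p in the PC3 cell libraries, 610.1 and 986 TPM, differ more from each other than hsa-miR-19a-3p, with 552 and 503 TPM, differs from hsa-miR-25-3p, with 494 and 524 TPM.

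The make-up of the member reads differed most in PC3 EVs. hsa-miR-92a-3p took 46.6% of the 73 member reads in PC3 EVs (Wilson 95% interval 35.6% to 57.9%) and 66.2% of the 990 in PC3 cells (63.2% to 69.0%). In MDA-MB-231 it took 68.0% of 387 member reads in EVs (63.2% to 72.4%) and 68.5% of 634 in cells (64.7% to 71.95%). The 3 members of miR-106b~25 together took 32.9% of member reads in PC3 EVs (23.2% to 44.3%) and 18.8% in PC3 cells (16.5% to 21.3%), and 17.8% in MDA-MB-231 EVs (14.3% to 21.95%) and 13.2% in MDA-MB-231 cells (10.8% to 16.1%). hsa-miR-20a-5p took none of the PC3 EV reads (0.00% to 5.00%), against 3.54% in PC3 cells (2.55% to 4.88%). These shares pool libraries of unequal depth and are a description.

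**Figure D2:**
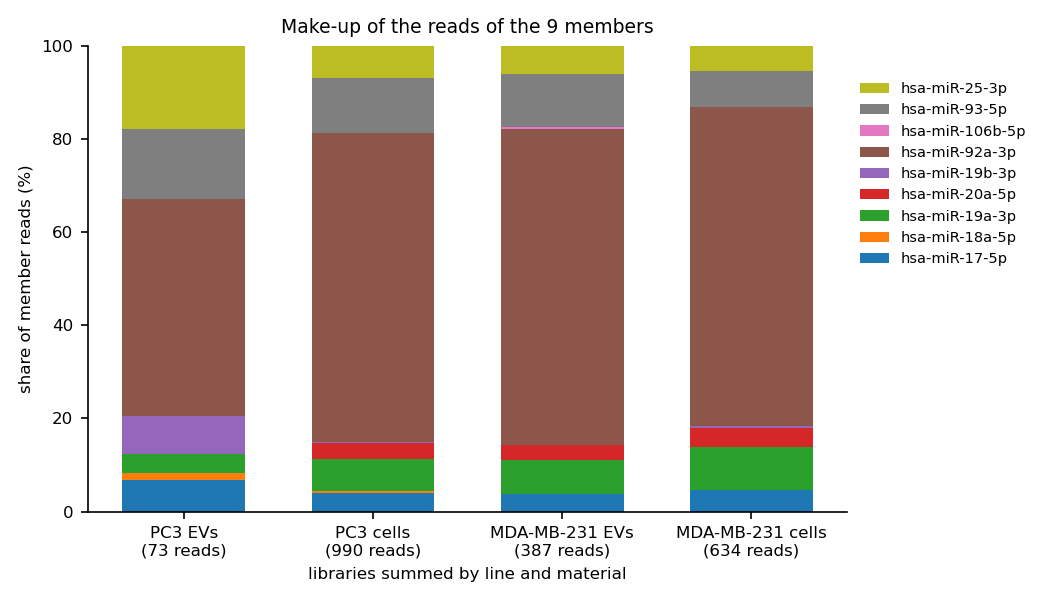
Share of each of the 9 members in the reads of all members (stacked bars, percent, from 0 to 100), with libraries summed by line and material and the number of reads under each bar. hsa-miR-92a-3p takes 46.6% in PC3 EVs and 66.2% to 68.5% in the other 3 bars.

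The first comparison asked whether the members took the same share of miRNA reads in EVs as in cells. The paper proposes that ATPS takes up cell-free RNA as well as vesicle RNA, and the part of such RNA in these values was not tested. In PC3 EVs hsa-miR-92a-3p and hsa-miR-20a-5p were lower than in PC3 cells, in MDA-MB-231 EVs hsa-miR-92a-3p was lower than in MDA-MB-231 cells, and no member was called higher in either line with the methods averaged. hsa-miR-92a-3p, which is known in mice for limiting blood vessel growth as well as for its action on BIM, had 796 and 217 TPM with ATPS, 821 and 964.5 TPM with UC and 632.5 and 399 TPM with exoRNeasy in PC3 EVs, against 4793 and 5030.4 TPM in PC3 cells. All 6 EV libraries lay below both cell libraries. The difference was -2.87 on the log2(TPM + 100) scale (SE 0.43, limma adjusted p = 0.000129), the scale of all log2 differences here. The added 100 TPM shrinks differences between low measured levels. Differences that rest on few reads can also come out too large, since 1 read was worth up to 505 TPM and a count of 0 is fitted as 0 TPM. For hsa-miR-92a-3p the difference was -3.23 with ATPS EVs alone, -2.34 with UC EVs alone and -3.05 with exoRNeasy EVs alone, with limma adjusted p between 0.000268 and 0.00745 (fits of single methods or lines, here and later, were chosen after seeing the data). Among mature-named reads alone it was -3.41.

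hsa-miR-20a-5p, a member with the miR-17 seed, had no read in any of the 6 PC3 EV libraries, against 349 and 236 TPM in PC3 cells. None of 44436 pooled EV reads was of hsa-miR-20a-5p, and 3 reads over these libraries are 67.5 TPM, so its level was at least 3.93-fold lower in PC3 EVs than the pooled 265 TPM of PC3 cells. The fitted difference was -1.96 (SE 0.55, limma adjusted p = 0.0205). This call was lost without either PC3 cell library, with a difference of -1.75 without replicate 1 and -2.17 without replicate 2. It was also lost with ATPS EVs alone (limma adjusted p = 0.0692) and with UC EVs alone (limma adjusted p = 0.0943), and DESeq2 gave no adjusted p. The call held with exoRNeasy EVs alone (limma adjusted p = 0.0458). A count of 0 allows 949 and 1196 TPM in those libraries, above the values in cells. hsa-miR-19a-3p, of the miR-19 seed family, had 0 and 434 TPM with ATPS, 0 and 68.9 TPM with UC and no read with exoRNeasy in PC3 EVs, against 552 and 503 TPM in PC3 cells. Its EV and cell libraries did not overlap, and its difference of -2.12 (SE 0.70) just missed the threshold with a limma adjusted p of 0.0506. It passed without PC3 ATPS replicate 2, at -2.52 with an adjusted p of 0.0138, and without either MDA-MB-231 exoRNeasy library, with adjusted p of 0.0358 and 0.0308. It also passed among mature-named reads alone, with -2.80 and an adjusted p of 0.0192, and in edgeR's quasi-likelihood test on the reads, with an adjusted p of 0.00115.

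The other members tested in PC3 did not pass. hsa-miR-93-5p had 398 and 0 TPM with ATPS, 205 and 207 TPM with UC and 316 and 797 TPM with exoRNeasy in EVs, against 610.1 and 986 TPM in cells, and exoRNeasy replicate 2 lay between the cell libraries. Its difference of -1.34 had a 95% interval of -2.73 to 0.05. hsa-miR-25-3p had 398 and 217 TPM with ATPS, 616 and 68.9 TPM with UC and no read with exoRNeasy, against 494 and 524 TPM in cells, a difference of -1.34 (-2.65 to -0.03) that did not pass the adjustment (limma adjusted p = 0.168). For hsa-miR-17-5p, with 0 to 399 TPM in EVs against 174 and 349 TPM in cells, the interval ran from -2.15 to 0.89. hsa-miR-19b-3p had 3 EV libraries with reads, UC replicate 2 with 138 TPM and exoRNeasy with 316 and 1196 TPM, against 0 and 30.8 TPM in cells, but 2, 1 and 3 reads stand behind these values and the interval ran from -0.17 to 2.12. It was called higher with exoRNeasy EVs alone (2.68, limma adjusted p = 0.00792), and without PC3 exoRNeasy replicate 1 the difference was 1.25. Both include the value that admitted hsa-miR-19b-3p to the test and are a description. In PC3, 2 of 7 tested members were thus called, both lower, where 15.2% of all 309 tested entries were called in either direction, 11% lower and 4.21% higher. The median of the 7 differences was -1.34, also with hsa-miR-20a-5p at its bound, and that of all entries was 0.00.

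In MDA-MB-231 EVs hsa-miR-92a-3p had 1966 and 2059.7 TPM with ATPS, 4408 and 4453 TPM with UC and 1023 and 1514 TPM with exoRNeasy, against 9781 TPM in the fitted cell library. All 6 EV libraries lay below it, the UC libraries being closest. The difference was -2.08 (SE 0.57, limma adjusted p = 0.0256), and by method it was -2.23 with ATPS, -1.13 with UC (limma adjusted p = 0.573) and -2.88 with exoRNeasy. The call was lost without PC3 cells replicate 1 or replicate 2, with the difference unchanged at -2.08. Those libraries enter this comparison only through the shared spread and the set of entries tested. Among mature-named reads alone the difference was -1.44 with an adjusted p of 0.291, and with MDA-MB-231 cells replicate 2 included, where the miRNA had none of 153 reads, its sign turned to 1.24 with an adjusted p of 0.579. The remaining 6 tested members were all lower in MDA-MB-231 EVs by the fit, by 0.54 to 1.87 on the log2 scale, and did not pass. hsa-miR-93-5p had 231 and 412 TPM with ATPS, 687 and 861 TPM with UC and no read with exoRNeasy, against 1104 TPM in cells, and all EV libraries lay below the cell library (limma adjusted p = 0.229). In TPM, hsa-miR-17-5p, hsa-miR-20a-5p and hsa-miR-25-3p were likewise below the cell library in all 6 EV libraries. hsa-miR-19a-3p reached 1514 TPM in exoRNeasy replicate 2, against 1307 TPM in cells. Per 1000000 mature-named reads, hsa-miR-17-5p reached 1412 in ATPS replicate 2 (909 in cells). hsa-miR-20a-5p reached 834 in exoRNeasy replicate 2 (788 in cells) and hsa-miR-25-3p 1091 in UC replicate 2 (1030 in cells). hsa-miR-93-5p had 1543 and 1930 with UC (1484 in cells). On that scale hsa-miR-92a-3p stayed below the cell library, with at most 9987, against 13147. The share of all entries below that library is not given here. In MDA-MB-231, 1 of 7 tested members was called, where 11% of entries were called in either direction, 7.12% lower and 3.88% higher, and the median of the members was -1.53, also with hsa-miR-19b-3p at its bound, against 0.00 over all entries.

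**Figure D3:**
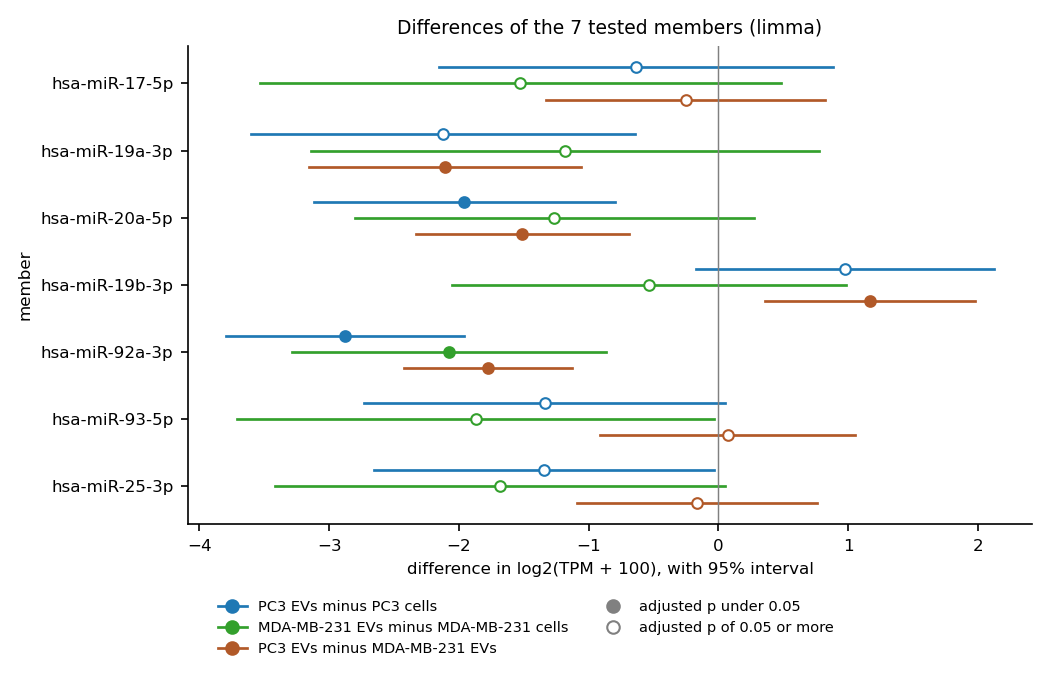
Difference in log2(TPM + 100) of the 7 tested members (points) with its 95% interval (lines) for PC3 EVs minus PC3 cells, MDA-MB-231 EVs minus MDA-MB-231 cells and PC3 EVs minus MDA-MB-231 EVs, from a limma fit over 309 entries. Filled points have an adjusted p under 0.05, and hsa-miR-92a-3p is filled in all 3 comparisons.

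Whether the step from cells to EVs differed between the lines was tested as a difference of differences, PC3 minus MDA-MB-231. None of the 7 members passed in limma, none had an unadjusted p under 0.05, and edgeR and DESeq2 also called none. For hsa-miR-92a-3p the difference was -0.80 with a 95% interval of -2.32 to 0.72, and for hsa-miR-20a-5p it was -0.69 (-2.62 to 1.24). In this comparison 0.647% of all entries were called, all of them lower. The MDA-MB-231 side rests on 1 cell library, and these intervals include differences of over 1 on the log2 scale.

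EVs of the 2 lines were then compared, with the 3 isolation methods averaged. In PC3 EVs hsa-miR-92a-3p, hsa-miR-19a-3p and hsa-miR-20a-5p were lower than in MDA-MB-231 EVs, hsa-miR-19b-3p was called higher, and hsa-miR-17-5p, hsa-miR-93-5p and hsa-miR-25-3p were not called. The 6 values of hsa-miR-92a-3p in PC3 EVs, 217 to 964.5 TPM with a median of 714 TPM, all lay below the 6 in MDA-MB-231 EVs, 1023 to 4453 TPM with a median of 2013 TPM. The difference was -1.78 (SE 0.31, limma adjusted p = 0.000247), and among mature-named reads alone it was -2.52. It passed with ATPS alone (-1.99) and with UC alone (-2.19) but not with exoRNeasy alone (-1.16, limma adjusted p = 0.143). hsa-miR-19a-3p had reads in 2 of 6 PC3 EV libraries, against 6 of 6 MDA-MB-231 EV libraries with 299 to 1514 TPM. The groups overlapped only through PC3 ATPS replicate 2, whose 434 TPM are 2 reads. Its difference was -2.11 (SE 0.49, limma adjusted p = 0.00363). hsa-miR-20a-5p, without a read in PC3 EVs, had reads in 5 of 6 MDA-MB-231 EV libraries, with 231 and 0 TPM with ATPS, 202 and 74.8 TPM with UC and 409 and 504.5 TPM with exoRNeasy. It was at least 2.47-fold lower in PC3 EVs by pooled reads, with a fitted difference of -1.51 (SE 0.39, limma adjusted p = 0.00677). Within a method, hsa-miR-19a-3p and hsa-miR-20a-5p passed only with exoRNeasy alone, and the differences between methods in this respect were not tested. The PC3 exoRNeasy libraries had no read of either, which allows 949 and 1196 TPM there, so the sizes of these exoRNeasy differences are not fixed by these reads. With the methods averaged, neither passed in DESeq2 (adjusted p of 0.0509 for hsa-miR-19a-3p and 0.259 for hsa-miR-20a-5p).

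The higher level of hsa-miR-19b-3p in PC3 EVs rests on 6 reads in 3 libraries, against 0 of 71827 reads in MDA-MB-231 EVs, at least 3.23-fold higher by pooled reads. Its difference of 1.17 (SE 0.38, limma adjusted p = 0.0318) rests on the values by which it passed the minimum mean, and without PC3 exoRNeasy replicate 2 it was under that minimum. In the other 14 fits that leave out a library the call was lost in 8, those without PC3 ATPS replicate 1, PC3 UC replicate 2 or either library of PC3 cells, MDA-MB-231 ATPS or MDA-MB-231 UC, with adjusted p from 0.0526 to 0.1, and had an adjusted p of 1.00 in edgeR. Since hsa-miR-19b-3p differs from hsa-miR-19a-3p by U11C alone, the values of both in the 3 PC3 libraries can be set side by side. UC replicate 2 had 138 TPM of hsa-miR-19b-3p and 68.9 TPM of hsa-miR-19a-3p, and both exoRNeasy libraries had no read of hsa-miR-19a-3p. For hsa-miR-93-5p the difference between the EVs was 0.07 with a 95% interval of -0.91 to 1.06, a mean of fitted values of opposite sign. It was -0.88 with ATPS alone and -1.51 with UC alone, which were not called, and 2.61 with exoRNeasy alone, which was called (limma adjusted p = 0.0265). The exoRNeasy value rests on 1 and 2 reads in PC3, 316 and 797 TPM, against 0 reads in MDA-MB-231. A count of 0 allows 614 and 1514 TPM in those MDA-MB-231 libraries, so the size of this difference is not fixed by these reads. For hsa-miR-25-3p the difference was -0.17 (-1.09 to 0.76) and for hsa-miR-17-5p -0.25 (-1.33 to 0.82). Of 7 tested members 1 was called higher and 3 lower in PC3 EVs, where 27.2% of all entries were called, 8.41% higher and 18.8% lower. Their median was -0.25, also with the members at 0 reads at their bounds, against -0.14 over all entries.

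In the cells themselves no member was called between the lines. hsa-miR-92a-3p had 4793 and 5030.4 TPM in PC3 cells, against 9781 TPM in the fitted MDA-MB-231 cell library, a difference of -0.98 with a 95% interval of -2.35 to 0.39. hsa-miR-19a-3p, with 552 and 503 TPM in PC3 cells, against 1307 TPM in MDA-MB-231 cells, differed by -1.17 (-3.39 to 1.05). All 7 differences were negative, with a median of -0.82, against 0.00 over all entries. In TPM both PC3 libraries lay below the MDA-MB-231 library for all 7, and the share of all entries lying so is not given here. Per 1000000 mature-named reads, hsa-miR-93-5p had 1124 and 1788 in PC3 cells, on both sides of the 1484 in MDA-MB-231 cells. The other tested members stayed below on that scale, hsa-miR-25-3p by little, with 910 and 950, against 1030. With 1 library on the MDA-MB-231 side none passed in limma, none had an unadjusted p under 0.05, and edgeR and DESeq2 called none, where limma called 4.85% of all entries, 1.94% higher and 2.91% lower.

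The isolation methods were compared with both lines averaged. Between ATPS and UC EVs no member was called. hsa-miR-92a-3p had 796 and 217 TPM in PC3 ATPS EVs, against 821 and 964.5 TPM in PC3 UC EVs, and 1966 and 2059.7 TPM in MDA-MB-231 ATPS EVs, against 4408 and 4453 TPM in MDA-MB-231 UC EVs. Both ATPS libraries lay below both UC libraries in each line, by little for PC3 ATPS replicate 1. The difference of -0.998 (-1.79 to -0.20) had an unadjusted p of 0.0169 and a limma adjusted p of 0.261. It was the only one of 7 members with an unadjusted p under 0.05. edgeR and DESeq2 called no member, and limma called 0.971% of all entries, 0.647% higher and 0.324% lower.

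Against exoRNeasy EVs, hsa-miR-25-3p was higher with ATPS and with UC, and hsa-miR-92a-3p was higher with UC, while hsa-miR-19b-3p went the other way and was not called with both lines averaged. hsa-miR-25-3p, the member of miR-106b~25 with the seed of miR-92a, had 398 and 217 TPM in PC3 ATPS EVs and 231 and 412 TPM in MDA-MB-231 ATPS EVs, and 616 and 68.9 TPM in PC3 UC EVs and 283 and 486 TPM in MDA-MB-231 UC EVs, against no read in any of the 4 exoRNeasy libraries. A count of 0 allows 614 to 1514 TPM in each of these libraries alone, so no single one shows a difference. Over all 4, with 12538 reads, it allows 239 TPM, against pooled levels of 302 TPM with ATPS (7 reads) and 372 TPM with UC (30 reads). Taken at these measured levels, hsa-miR-25-3p was at least 1.26-fold higher with ATPS and at least 1.56-fold higher with UC. The counting error of the 7 and 30 reads is not in these folds, so they are not firm bounds. The fitted differences were 2.02 for ATPS (SE 0.54, limma adjusted p = 0.0199) and 2.02 for UC (SE 0.54, limma adjusted p = 0.0154), but edgeR gave an adjusted p of 0.267 for ATPS and 0.0559 for UC. The ATPS call was lost without PC3 ATPS replicate 1 or MDA-MB-231 ATPS replicate 2, and the UC call without PC3 UC replicate 1 or MDA-MB-231 UC replicate 2, with adjusted p from 0.0639 to 0.0702. Within a single line hsa-miR-25-3p was not called, with limma adjusted p of 0.114 for ATPS in both lines, and for UC of 0.144 in PC3 and 0.0624 in MDA-MB-231. In ATPS against exoRNeasy 1 of 7 members was called, higher, where 12% of all entries were called, 4.53% higher and 7.44% lower, and the members' median was 0.29, also with the members at 0 reads at their bounds, against -0.13 over all entries.

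hsa-miR-92a-3p had 821 and 964.5 TPM in PC3 UC EVs, against 632.5 and 399 TPM in PC3 exoRNeasy EVs, and 4408 and 4453 TPM in MDA-MB-231 UC EVs, against 1023 and 1514 TPM in MDA-MB-231 exoRNeasy EVs. The UC libraries were higher in both lines. The difference was 1.23 (SE 0.37, limma adjusted p = 0.0296), with 0.71 within PC3 (limma adjusted p = 0.391) and 1.75 within MDA-MB-231 (limma adjusted p = 0.0403). It kept its sign in all 15 fits that leave out a library and lost the call in 8 of them, those without either library of PC3 UC, PC3 cells or MDA-MB-231 UC, PC3 exoRNeasy replicate 2 or MDA-MB-231 exoRNeasy replicate 1, with adjusted p from 0.0503 to 0.094. In UC against exoRNeasy 2 of 7 members were called, both higher, where 20.1% of all entries were called, 8.74% higher and 11.3% lower, and their median was 0.15, also with hsa-miR-25-3p at its bound, against -0.10 over all entries. hsa-miR-93-5p had 687 and 861 TPM with UC in MDA-MB-231 EVs, against no read with exoRNeasy, but in PC3 EVs it had 205 and 207 TPM with UC, against 316 and 797 TPM with exoRNeasy, and over both lines it did not pass (1.06, -0.14 to 2.26). Within MDA-MB-231 hsa-miR-93-5p was called, at 3.12 (limma adjusted p = 0.0167), and within PC3 it was -0.998 (limma adjusted p = 0.422). A count of 0 allows 614 and 1514 TPM in the MDA-MB-231 exoRNeasy libraries, so the size of the difference within MDA-MB-231 is not fixed by these reads.

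hsa-miR-19b-3p had no read in ATPS EVs and 0 and 138 TPM in PC3 UC EVs, against 316 and 1196 TPM in PC3 exoRNeasy EVs, and no read in MDA-MB-231 EVs. Its difference was -1.44 for ATPS (limma adjusted p = 0.0547) and -1.13 for UC (limma adjusted p = 0.096). Within PC3 it was called lower with ATPS (-2.88, limma adjusted p = 0.0107) and with UC (-2.25, limma adjusted p = 0.0389). Without PC3 exoRNeasy replicate 1 the differences over both lines were -1.85 for ATPS and -1.54 for UC. All of these rest on 1 and 3 exoRNeasy reads, include the value that admitted the member to the test, and are a description. A count of 0 allows 597 and 650 TPM in the PC3 ATPS libraries. The ATPS and UC comparisons share the exoRNeasy libraries and are not independent of each other.

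The other products of the same hairpins were read from lists of opposite arms, hairpin names and paralogues. Of 11 opposite arms 5 are in the table, and for a pair of members the opposite arm had more reads than the member. hsa-miR-106b-3p had 19 reads in 8 libraries and hsa-miR-106b-5p 3, so that 86.4% of the reads of both arms were of the 3p arm (Wilson 95% interval 66.7% to 95.3%). hsa-miR-18a-3p had 13 reads in 8 libraries and hsa-miR-18a-5p 4, or 76.5% (52.7% to 90.4%). For the abundant members the listed arm dominated, with 4 reads of hsa-miR-93-3p beside 221 of hsa-miR-93-5p and 2 of hsa-miR-17-3p beside 90 of hsa-miR-17-5p. hsa-miR-106b-3p had 9 reads in EVs and 10 in cells, and hsa-miR-106b-5p had 1 in EVs and 2 in cells.

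The paralogue hsa-miR-106a-5p had 89 reads, against 90 of hsa-miR-17-5p, and the counts were equal in 12 of the 13 libraries with reads of either. Reads of the pair, which differs by C1A, cannot be told apart here, and every value of hsa-miR-17-5p may belong to either. hsa-miR-92b-3p, which has the seed of hsa-miR-92a-3p but comes from another locus, had 0 to 689 TPM in PC3 EVs, against 755 and 760 TPM in PC3 cells, and 504.5 to 2694 TPM in MDA-MB-231 EVs, against 2276 TPM in the fitted MDA-MB-231 cell library. It was not called between EVs and cells, with -1.35 in PC3 (-2.89 to 0.18) and -0.54 in MDA-MB-231 (-2.57 to 1.49), and it was lower in PC3 EVs than in MDA-MB-231 EVs, with a difference of -2.28 (SE 0.51, limma adjusted p = 0.00259).

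Of 11 hairpin names of these clusters and their copies 10 are in the table, the entries that reads take when they are assigned to a hairpin rather than to a mature form. Over the hairpins and the 9 members together, hairpin names held 20.7% in PC3 EVs (19 hairpin reads beside 73 member reads, Wilson 95% interval 13.6% to 30.0%) and 6.25% in PC3 cells (66 beside 990, 4.94% to 7.87%). In MDA-MB-231 they held 14.0% in EVs (63 beside 387, 11.1% to 17.5%) and 3.06% in cells (20 beside 634, 1.99% to 4.68%). Over all miRNA entries the hairpin-named share was 18.4% to 29.3% in PC3 EV libraries, against 44.9% and 45.7% in PC3 cells, and 39.5% to 63.8% in MDA-MB-231 EV libraries, against 25.6% in the fitted MDA-MB-231 cell library. The share for the clusters was thus higher in EVs than in cells in both lines, while over all entries it was lower in PC3 EVs than in PC3 cells. By method, hairpin names of the clusters held 33.3% of reads with ATPS, 17.2% with UC and 15.4% with exoRNeasy in PC3 EVs. In MDA-MB-231 EVs they held 26.2% with ATPS, 7.20% with UC and 55.3% with exoRNeasy. These shares rest on few reads and are a description.

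A single hairpin name, hsa-mir-19a, held 23 of the 63 hairpin reads in MDA-MB-231 EVs. It had 347 and 824 TPM with ATPS, 40.4 and 0 TPM with UC and 1637 and 3532 TPM with exoRNeasy in MDA-MB-231 EVs, against no read in the fitted MDA-MB-231 cell library. The UC libraries were low and the exoRNeasy libraries high. In PC3 it had no read in EVs, against 0 and 10.3 TPM in cells. By pooled reads hsa-mir-19a was at least 4.74-fold higher in MDA-MB-231 EVs than in MDA-MB-231 cells. It passed the minimum mean through the ATPS and exoRNeasy libraries of MDA-MB-231 and was picked for its excess over cells, so no test is given. Its mature product hsa-miR-19a-3p had 347 and 824 TPM with ATPS, 323 and 299 TPM with UC and 409 and 1514 TPM with exoRNeasy in the same EVs, so that the ATPS libraries held equal reads of both names. Without hsa-mir-19a the hairpin-named share in MDA-MB-231 exoRNeasy EVs was 26.1%. Over the MDA-MB-231 EVs of all methods it was then 9.37%, against 3.06% in cells. The table does not give the length of these reads.

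**Figure D4:**
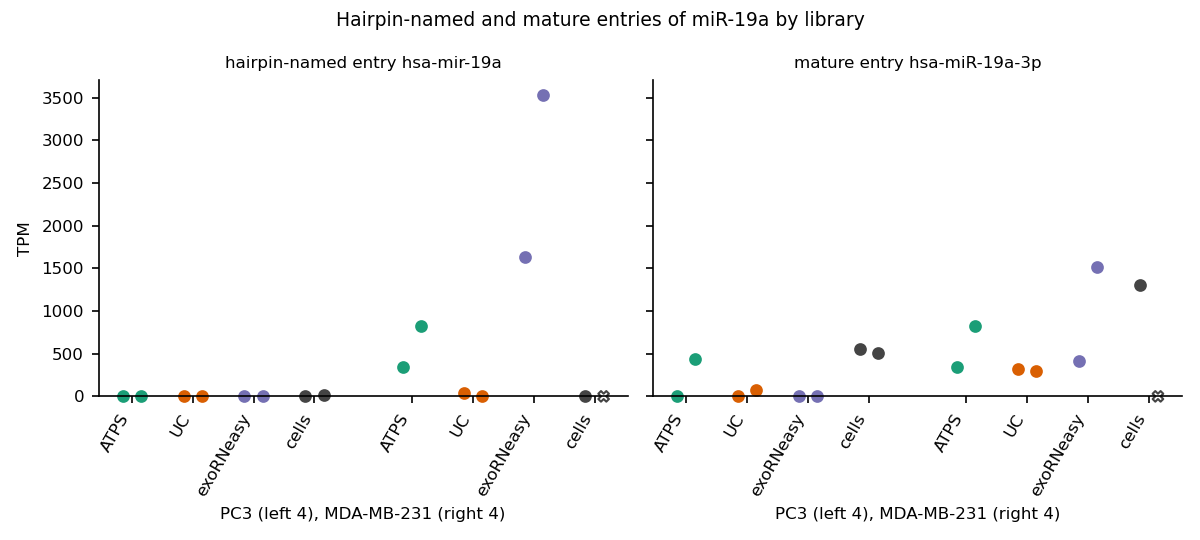
Level in TPM (reads per 1000000 miRNA reads, linear axis from 0, same scale in both panels) of the hairpin-named entry hsa-mir-19a and of the mature entry hsa-miR-19a-3p in the 16 libraries, by line and material, 1 point a library, with a cross for MDA-MB-231 cells replicate 2. hsa-mir-19a reaches 1637 and 3532 TPM with exoRNeasy in MDA-MB-231 EVs and is at 0 TPM in all 6 PC3 EV libraries.

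The miRNAs whose level over the 15 fitted libraries was most like the summed level of each cluster were picked among the 59 other mature entries with a mean of at least 500 TPM, by Spearman's coefficient. For miR-17~92 these were hsa-miR-221-5p (0.868), hsa-miR-103a-3p (0.825) and hsa-miR-107 (0.821), and for miR-106b~25 hsa-miR-222-3p (0.919), hsa-miR-423-3p (0.840) and hsa-miR-454-3p (0.826). All entries are read in the same libraries, which differ in depth, line and material, so these coefficients are a description.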

How the data were processed

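Small RNA libraries of 16 samples were grouped by line and material from the sample labels. The authors used quality trimming at Q20 in windows of 4 bases, a length window of 18 to 35 bases, STAR on hg38 and COMPSRA annotation, in versions not given in the sources used here. Deposited values, called TPM, are CPM over the miRNA reads of a library. In each library 100% of values were whole multiples of 1 read within 0.1 read. Libraries with at least 1000 miRNA reads and entries with a mean of at least 50 TPM were fitted with limma 3.58.1 (R 4.3.3, trend and robust) on log2(TPM + 100), with a mean for each of 8 groups. Adjusted p-values are Benjamini-Hochberg values over 309 entries within a comparison, with a threshold of 0.05. edgeR 4.0.16 and DESeq2 1.42.0 were run on the recovered reads. On simulated data for PC3 EVs against PC3 cells, with 200 of 309 entries changed, the limma step made 88 calls, 86 of them true, finding 4 of 50 entries changed 2-fold, 21 at 4-fold, 25 at 8-fold and 36 at 16-fold. The simulation started all groups from a shared mean per entry, with a dispersion set to 0.1 rather than estimated. Most entries were changed in it, so it says little about false calls in these data. The members, the related lists and the rule for likeness were chosen with earlier results of these data known. Named entries are the 9 members, their opposite arms, hairpins and paralogues, the miR-92 and miR-25 family at other loci, and the 3 entries most like each cluster. Alternatives were other scalings, pseudocounts, filters and tools, a replicate block, and leaving out each library. Each method or line alone was added after seeing the data. Markers of blood cells (1 of 7 in the table), liver (0 of 1) and muscle (0 of 3) were read too. circRNA and snoRNA tables were not used here. The labels give 5% FBS in the growth medium for both lines, and the study's methods give 10% for MDA-MB-231. ATPS used 3% PEG and 1.5% DEX, and UC 200000 × g for 2 h.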

Additional observations from a re-analysis of the deposited data

Results flagged for a closer look

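The hairpin-named entry hsa-mir-19a, which is outside the 9 members, had 23 reads over the 6 MDA-MB-231 EV libraries, against 0 of 44370 reads in the fitted MDA-MB-231 cell library, which allows up to 67.6 TPM there. It drew attention as a signal outside the members that exceeds its level in cells. Of the 23 reads, 15 were in the exoRNeasy libraries and 7 in the ATPS libraries, and PC3 EVs had none. No test is given, since this excess is what singled it out. Groups of 2 libraries are too small for a test of outlying libraries.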

How the results depend on the processing

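Of 1427 values of single members under the alternatives listed above, 1361 kept their side of the threshold, 49 lost a call, 16 gained one and 1 reversed: hsa-miR-92a-3p in MDA-MB-231 EVs against MDA-MB-231 cells, at 1.24 (adjusted p = 0.579) with all 16 libraries. A further 55 values below the threshold differed in sign. In PC3 EVs against PC3 cells the members called, 2 in the report, numbered 4 with TMM factors, 0 with all 16 libraries, 5 in edgeR, 1 in DESeq2, 1 with ATPS or UC alone, 5 with exoRNeasy alone (1 of them, hsa-miR-19b-3p, higher) and 1 to 3 with a library left out. In MDA-MB-231 EVs against MDA-MB-231 cells, 1 in the report, they numbered 0 with quantile normalization, mature-named entries alone, a pseudocount of 1 or 10 TPM, all 16 libraries or UC alone, 2 in edgeR, 3 with exoRNeasy alone and 0 to 1 with a library left out. In PC3 EVs against MDA-MB-231 EVs, 4 in the report, there was 1 in DESeq2, with ATPS alone and with UC alone. In ATPS against exoRNeasy EVs, 1 in the report, there were 0 with no filter, all 16 libraries, edgeR, DESeq2 or within MDA-MB-231, 1 within PC3 that was hsa-miR-19b-3p, lower, and 0 to 2 with a library left out. In UC against exoRNeasy EVs, 2 in the report, there was 1 with a pseudocount of 1 TPM, no filter or edgeR, 1 within PC3 that was neither of these but hsa-miR-19b-3p, lower, 2 within MDA-MB-231 that were hsa-miR-92a-3p and hsa-miR-93-5p, 0 with all 16 libraries or DESeq2, and 0 to 3 with a library left out. The call of hsa-miR-92a-3p in PC3 EVs against PC3 cells was lost only with all 16 libraries (adjusted p = 0.125), where the library of 153 reads enters the fit. The cause of the other changes was not tested.

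Same-numbered libraries did not deviate together (correlations of -0.10 to 0.13 over 21 pairs of groups, 2 above 0.1), and the replicate block moved no count of members called by over 1.5 times, adding hsa-miR-19a-3p in PC3 EVs against PC3 cells (adjusted p = 0.0371). Calls over all entries ranged from 20 to 80 in PC3 EVs against PC3 cells (47 in the report), 11 to 98 in MDA-MB-231 EVs against cells (34), 8 to 76 in PC3 against MDA-MB-231 cells (15), 1 to 58 in the difference between lines (2), 1 to 9 in ATPS against UC EVs (3), 14 to 61 in ATPS against exoRNeasy EVs (37), 19 to 90 in UC against exoRNeasy EVs (62) and, with 1 method alone, 31 with UC and 45 with ATPS in PC3 against MDA-MB-231 EVs (84). The split of these calls moved with the scaling. Higher calls in PC3 EVs against PC3 cells were 13 of 47, 10 of 65 with TMM factors and 5 of 37 with mature-named entries alone. In MDA-MB-231 EVs against cells they were 12 of 34, and 7 of 11 with mature-named entries, in PC3 against MDA-MB-231 EVs 26 of 84, 37 of 73 with quantile normalization and 10 of 57 with mature-named entries, and in PC3 against MDA-MB-231 cells 6 of 15, 11 of 18 with TMM factors and 2 of 8 with mature-named entries. In ATPS against exoRNeasy EVs they were 14 of 37, 15 of 27 with TMM factors and 15 of 30 with quantile normalization, and in UC against exoRNeasy EVs 27 of 62, 42 of 67 with TMM factors, 38 of 62 with quantile normalization and 25 of 41 with mature-named entries. Fits without MDA-MB-231 cells replicate 1 give no value for comparisons with those cells. EV depth limits all members, since those other than hsa-miR-92a-3p have 0 to 23 reads per EV library, and hsa-miR-92a-3p has 1 to 5 in the PC3 ATPS and in all exoRNeasy libraries.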
